A study of Mus musculus with 4 samples.

Results

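The cells described here are mesenchymal cells of the mouse molar region that carried mRNA of Alx1. They were chosen by unique molecular identifiers (UMIs), the short tags by which each captured mRNA is counted a single time. A barcode, which stands for 1 droplet and as a rule 1 cell, was taken when it held at least 2 UMIs of Alx1 and Pax3 together, with at least 1 of Alx1, and at least 5 UMIs of the collagen genes Col1a1, Col1a2 and Col3a1. It had to lack Epcam, Ptprc and Pecam1, the markers of epithelium, leukocytes and endothelium, to hold at most 1 UMI of Ebf2, and either to lack the muscle genes Pax7 and Myod1 or to hold at least 5 UMIs of Col3a1. Of 56940 barcodes in the 4 libraries, 42164 had at least 1000 UMIs and under 10% mitochondrial UMIs and were not among the barcodes shared by the P1 libraries, which were taken out of the P1 mandibular library. Of these, 18319 met the conditions other than those on Alx1 and Pax3 and are called collagen cells. The Alx1 cells numbered 1088.

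ALX1 and ALX4 are homeodomain transcription factors of the neural crest mesenchyme that builds the upper and middle face, and PAX3 marks the early neural crest and muscle precursors. In the first pharyngeal arch, the maxillary part forms the upper jaw and the palate, while DLX5, DLX6 and HAND2 give the mandibular part its identity. HPSE2 is a relative of heparanase that binds heparan sulfate but does not cleave it. ALX and PAX3 proteins bind DNA motifs built around the core TAAT.

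The study compared molar tooth organs of wild-type mice labelled WTB6 (C57BL/6J) from embryos at E15.5 (E15 in some labels) and from pups labelled P0/P1, from the maxillary and from the mandibular jaw. Each stage and jaw was a single library made from a pool of 6 tooth organs. Without replicates no p-values were computed, and differences between mice cannot be told apart from differences between stages or jaws. The tooth organs were dissected whole and no cell type was sorted. The level of a gene is its share of the summed UMIs of the same cells, in counts per 1000000 UMIs (CPM), and all intervals in square brackets are exact 95% intervals that cover counting error only.

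The E15.5 maxillary library held 217 Alx1 cells, or 4.65% [4.07 to 5.3] of its 4664 collagen cells. The E15.5 mandibular library held 73, or 4.75% [3.74 to 5.94] of 1536. The P1 maxillary library held 702, or 8.26% [7.68 to 8.86] of 8501, and the P1 mandibular library 96, or 2.65% [2.15 to 3.23] of 3618. The share was thus highest in the P1 maxillary molar and lowest in the P1 mandibular molar, and the E15.5 shares had overlapping intervals. Without the barcodes shared by the P1 libraries, described next, the P1 maxillary share was 16% (697 of 4358). When each cell was thinned to 2000 UMIs before the rule was applied, the shares were 0.797%, 0.463%, 5.73% and 0.277% (E15.5 maxillary, E15.5 mandibular, P1 maxillary, P1 mandibular). Barcodes with at least 2 UMIs of Ptprc passed the Alx1 and Pax3 thresholds in 0 to 0.469% of cases, and those with at least 2 UMIs of Epcam in 0.297% to 2.80%. The highest of these was 3 of 107 cells in the E15.5 mandibular library [0.582 to 7.98], an interval that includes the 4.75% of its collagen cells. The part of free RNA or mixed droplets in these shares was not tested.

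The P1 libraries had 7131 barcodes in common, against 28 to 70 for any other pair of libraries. Only 5 of the 702 Alx1 cells of the P1 maxillary molar were shared barcodes, but 4115 of its 6753 other collagen cells were (60.9%), so values without shared barcodes are given beside the main comparisons between them. The Alx1 cells had a median of 11390 UMIs in the E15.5 maxillary, 12200 in the E15.5 mandibular, 2820 in the P1 maxillary and 13777 in the P1 mandibular library. The other collagen cells of the P1 maxillary library had a median of 8902 UMIs, and 2608.5 without shared barcodes. In shallow cells 2 UMIs are a higher level and 0 UMIs a weaker sign of absence, and the part of depth in the P1 maxillary values was not tested beyond the settings given in the closing section. Total depth was 86659227 to 139873101 UMIs a library, and median mitochondrial shares of the Alx1 cells lay between 2.46% and 2.93%.

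The rule fixed Alx1, and Pax3 in part, so their levels are a description. Alx1 stood at 221.1 CPM in the E15.5 maxillary, 333.1 in the E15.5 mandibular, 658.6 in the P1 maxillary and 284.1 in the P1 mandibular cells, with at most 20 UMIs in any cell. Pax3 stood at 176.0 CPM in the E15.5 maxillary and 390.3 CPM in the P1 maxillary cells, where 66.8% and 58.7% of cells held it. In the mandibular cells it stood at 32.7 CPM at E15.5 (34 UMIs in 9 of 73 cells) and at 1.45 CPM at P1 (2 UMIs in 1 of 96 cells). The joint name Alx1 and Pax3 mesenchyme therefore described the maxillary cells, and in the mandible the cells were Alx1 cells nearly without Pax3. Conversely, 106, 76, 298 and 20 collagen cells held at least 2 UMIs of Pax3 without Alx1 (E15.5 maxillary, E15.5 mandibular, P1 maxillary, P1 mandibular) and were left out by the rule. Cells with 1 UMI of Alx1 and none of Pax3, just outside the threshold, numbered 143, 32, 379 and 41 in the same order, against 55, 18, 269 and 36 just inside it. Hpse2 stood at 158.4, 439.7, 330.5 and 412.0 CPM just inside and at 35.3, 273.0, 212.4 and 303.2 CPM just outside.

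Hpse2 was higher in the Alx1 cells than in other collagen cells in each of the 4 libraries. It had been picked as a marker of these cells with the data in view, so its ratio is a description. Its level was 154.8 CPM in the E15.5 maxillary, 930.8 in the E15.5 mandibular, 313.9 in the P1 maxillary and 420.0 in the P1 mandibular Alx1 cells. In collagen cells without any UMI of Alx1 or Pax3, called other collagen cells, the levels were 5.13, 22.4, 8.52 and 4.54 CPM. On the log2 scale, where 1 is 2-fold, the Alx1 cells were higher by 4.92 [4.68 to 5.16], 5.38 [5.21 to 5.55], 5.20 [5.04 to 5.37] and 6.53 [6.30 to 6.77]. Without shared barcodes, the other collagen cells of the P1 maxillary library held 64.1 CPM, and the log2 ratio there was 2.30 [2.14 to 2.47]. Hpse2 was not in every Alx1 cell: 43.3%, 57.5%, 36.9% and 32.3% held it, against 1.98%, 5.59%, 3.09% and 1.54% of the other collagen cells. Among cells that hold Epcam, 0.52% to 6.63% had a UMI of Hpse2. The tenth of Alx1 cells with most Hpse2 held between 43.8% of its UMIs (E15.5 mandibular) and 61.5% (P1 maxillary), and the highest cell had 86.

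Hpse2 lies on the minus strand of chromosome 19 (mm10, chr19:42786539-43388355). The 250 bases before its start (RefSeq, GRCm38.p6, chr19:43388356-43388605, minus strand, written 5′ to 3′) are shown because Hpse2 was higher in the cells of every library. The homeodomain core, TAAT or its reverse complement ATTA, is in capitals.
Hpse2: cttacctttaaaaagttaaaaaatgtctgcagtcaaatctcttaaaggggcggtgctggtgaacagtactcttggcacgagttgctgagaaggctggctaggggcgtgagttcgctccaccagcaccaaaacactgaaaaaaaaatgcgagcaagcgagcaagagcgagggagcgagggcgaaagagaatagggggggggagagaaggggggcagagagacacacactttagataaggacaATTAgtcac
It held 1 core, whose first base lay 9 bases before the start. It held no palindromic pair of cores (TAAT followed by ATTA 3 bases on), the form that dimers of paired-type homeodomains bind. Of 32851 promoters of the same length, 54.9% held a core and 0.46% the palindrome on either strand, so the core is common and its match is a description only.

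**Figure D1:**
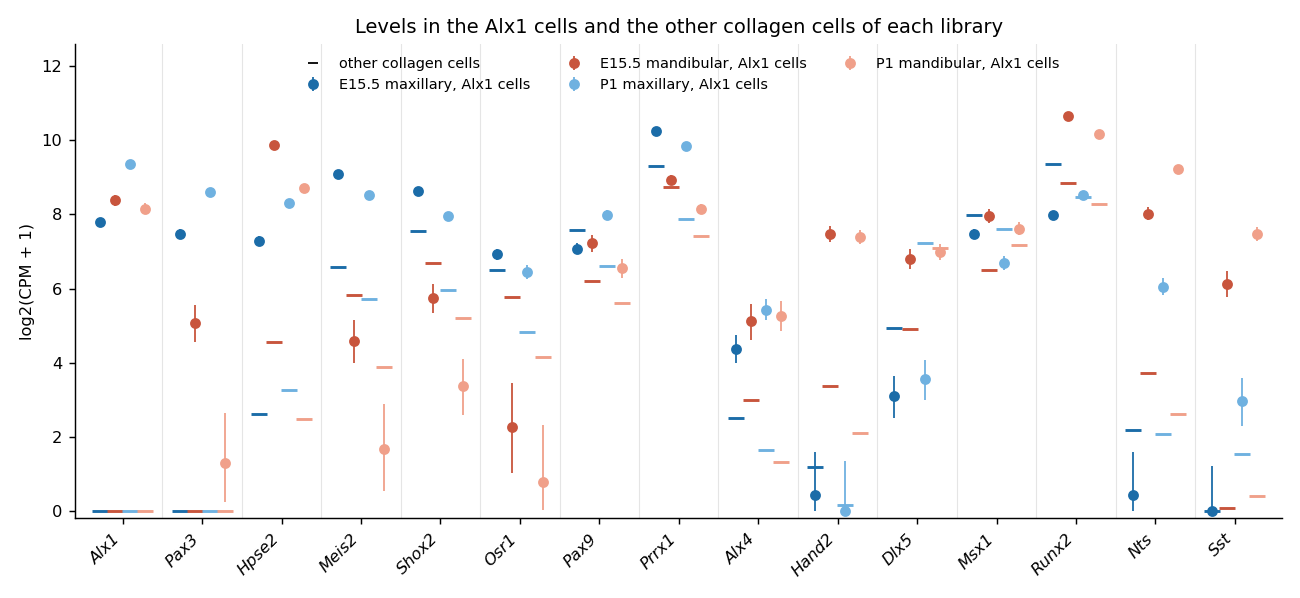
Levels of 15 genes on the log2(CPM + 1) scale (vertical axis) in the 4 libraries, with dots for the Alx1 cells (bars are exact 95% Poisson intervals) and dashes for the other collagen cells, in which Alx1 and Pax3 are 0 by rule. Pax3, Meis2, Shox2 and Osr1 stand high in the maxillary (blue) dots and Hand2, Dlx5, Nts and Sst in the mandibular (red) dots, while Hpse2 stands above its dashes in all 4 libraries.

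Against the other collagen cells, a gene was compared when it had at least 20 CPM in the higher population and 30 UMIs in both together, the genes of the rule left aside. Of 7558 genes compared in the E15.5 maxillary library, 330 differed at least 2-fold (4.37%), 2.28% higher and 2.09% lower in the Alx1 cells. Of 7866 in the E15.5 mandibular library, 1066 differed (13.6%), 7.13% higher and 6.42% lower. In the P1 maxillary library 973 of 7862 differed (12.4%), 6.14% higher and 6.23% lower, and without shared barcodes 188 of 7530 (2.5%), 1.10% higher and 1.39% lower. In the P1 mandibular library 787 of 7826 differed (10.1%), 4.24% higher and 5.81% lower. Both maxillary libraries had 84 genes higher (1.16%) and 53 lower (0.730%) in common, and both mandibular libraries 158 higher (2.20%) and 159 lower (2.21%). In every one of these comparisons the median log2 ratio over all genes lay between 0.00 and 0.05. Few genes moved the same way in all 4 libraries: 11 of 6779 were at least 2-fold higher in each (0.162%) and 16 at least 2-fold lower in each (0.236%). The 11 higher genes were Hpse2, Thsd7b, Grm7, Scara5, Ddit4l, Plce1, Kif26b, Adam12, Angpt1, Atp8a1 and the noncoding 4930444A19Rik. Without shared barcodes, 3 of the 11 stayed past 2-fold in the P1 maxillary library, namely Hpse2 at 2.30, Kif26b at 1.27 and Ddit4l at 1.10 on the log2 scale.

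Some of these genes encode known surface and secreted proteins. Grm7, a metabotropic glutamate receptor, stood at 172.8, 567.0, 150.1 and 111.3 CPM (E15.5 maxillary, E15.5 mandibular, P1 maxillary, P1 mandibular), against 40.5, 59.2, 29.4 and 14.5 CPM in the other collagen cells. Angpt1, the ligand of the endothelial receptor TIE2, stood at 396.0, 199.3, 305.8 and 275.4 CPM against 141.9, 81.0, 135.6 and 102.3 CPM. Adam12, a metalloprotease, stood at 214.3, 250.3, 167.6 and 122.2 CPM against 88.5, 103.7, 44.9 and 53.7 CPM. Scara5, a scavenger receptor of ferritin, was lower in level, at 23.7, 69.3, 24.7 and 50.6 CPM against 5.79 to 8.70 CPM. Without shared barcodes, the other collagen cells of the P1 maxillary library held Grm7 at 89.2, Angpt1 at 193.7, Adam12 at 109.7 and Scara5 at 18.9 CPM. The P1 maxillary Alx1 cells were still above these levels but within 2-fold, with log2 ratios of 0.74, 0.67, 0.62 and 0.42.

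The 16 genes that were lower in all 4 libraries included some markers of the tooth mesenchyme and of connective tissue. Whole lists of tooth markers did not all follow. The 10 dental papilla markers summed to 692.5, 979.0, 740.5 and 749.0 CPM against 1406.3, 641.4, 1196.4 and 904.9 CPM in the other collagen cells. The 8 dental follicle markers summed to 4435.0, 2288.1, 3648.1 and 2168.1 CPM against 2582.7, 2222.2, 1529.6 and 1448.9 CPM. Without shared barcodes the P1 maxillary references were 870.8 and 3532.0 CPM. Barx1, a transcription factor of the molar field, stood at 100.4, 33.7, 146.7 and 30.4 CPM in the Alx1 cells and at 375.5, 177.6, 579.1 and 431.9 CPM in the other collagen cells. Its log2 ratio was -1.90, -2.40, -1.98 and -3.83, and -0.61 in the P1 maxillary library without shared barcodes. Dpt, which encodes the dermal matrix protein dermatopontin, stood at 24.4, 5.78, 13.6 and 0.723 CPM against 107.7, 78.7, 46.2 and 30.5 CPM. Its ratio stayed past 2-fold without shared barcodes, at -1.29. The metallothionein Mt1, the microfibril gene Mfap5, the transcription factor gene Dach1 and the teneurin gene Tenm1 were lower too, with log2 ratios between -3.86 and -1.34. Of the 16 genes, Barx1, Dach1, Cthrc1 and Slc8a3 were within 2-fold in the P1 maxillary library once shared barcodes were left out, at -0.61, -0.97, -0.90 and -0.21.

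The genes that differed most in both maxillary libraries were of several kinds. Meis2, a homeodomain cofactor of the palate and face, stood at 539.8 CPM (E15.5) and 366.8 CPM (P1) in the Alx1 cells and at 94.8 and 52.0 CPM in the other collagen cells. The log2 ratio was 2.51 [2.42 to 2.60] and 2.82 [2.71 to 2.93]. Without shared barcodes, the other collagen cells of the P1 maxillary library held 386.7 CPM of Meis2 and the ratio was -0.07 [-0.18 to 0.04], so at P1 Meis2 did not set the Alx1 cells apart from cells of like depth. Lrfn5, a synaptic adhesion gene, was higher by 3.12 and 3.97 on the log2 scale, and by 1.75 without shared barcodes. Synpo2, an actin-binding protein, was higher by 3.17 and 2.46, and by 1.83 without shared barcodes. Of the 13 genes of the maxillary list that are given here, Hpse2, Lrfn5, Gm20754, Synpo2 and E130114P18Rik thus stayed past 2-fold in cells without shared barcodes, and Asb4, Hcrtr2, Meis2, Thsd7b, Enpep, Grm7, Mgp and Pgm5 did not, with ratios from -0.07 to 0.75.

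Mgp, the matrix Gla protein that inhibits calcification, stood at 636.5 and 813.8 CPM in the maxillary Alx1 cells and at 128.0 and 20.2 CPM in the mandibular ones. Its log2 ratio to the other collagen cells was 2.07 and 2.96 in the maxilla, 0.43 without shared barcodes, and -0.93 and -2.41 in the mandible. The mandibular cells were thus on the other side for Mgp, as they were for Meis2, at -1.26 and -2.67, where the P1 value rests on 3 UMIs in the Alx1 cells. Among the 8 genes that were lowest in both maxillary libraries, Dlx2, Dlx5 and Dlx1, which encode homeodomain factors of the arches, were higher in the E15.5 mandibular Alx1 cells, at 1.22, 1.92 and 1.48. The osteopontin gene Spp1 had log2 ratios of -3.76 and -5.45 in the maxillary cells, and of -4.74 at P1 without shared barcodes. In the E15.5 mandibular cells its ratio was 2.76, but 1252 of its 1291 UMIs came from 1 cell and all of them from 5 of 73.

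**Figure D2:**
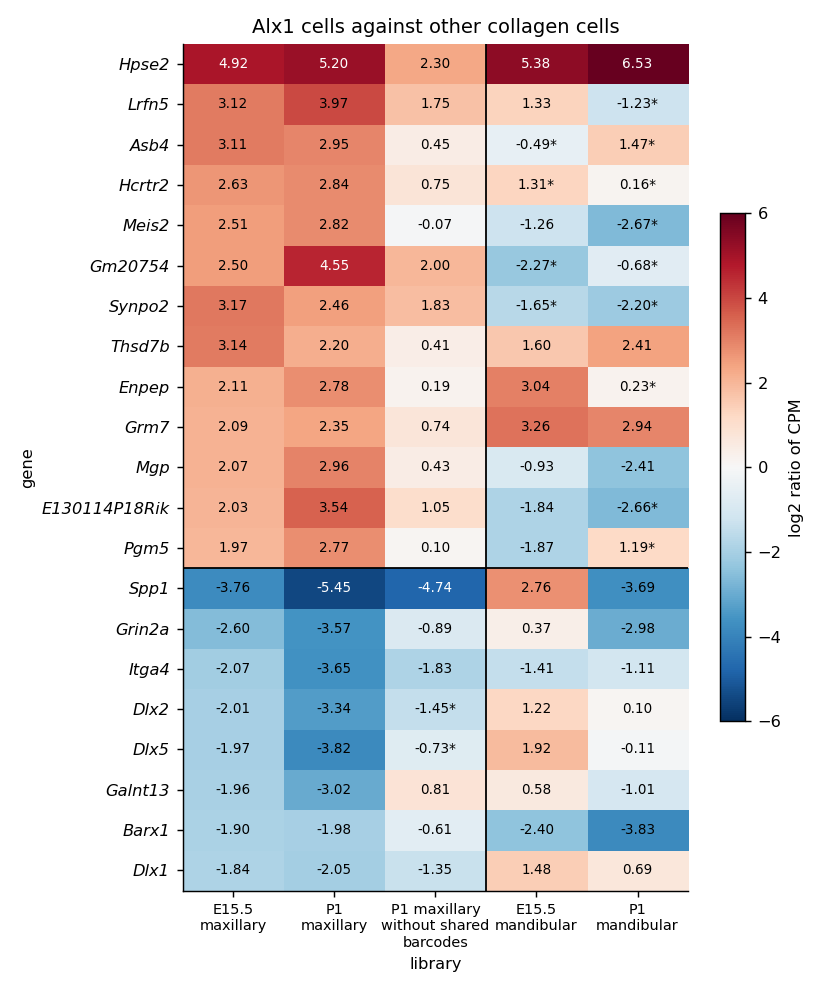
Log2 ratio of CPM in the Alx1 cells over that in the other collagen cells (colour and number) for 13 of the 15 highest and the 8 lowest genes of the maxillary libraries (rows, divided by the line) in each library and in the P1 maxillary library without shared barcodes (columns). An asterisk marks a value under the minimum level, and the third column shows Hpse2 at 2.30 while Meis2 is at -0.07.

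Cells that met the conditions on collagen, Epcam, Ptprc, Pecam1 and muscle genes but held at least 2 UMIs of Ebf2 and none of Alx1 or Pax3, called Ebf2 cells, were a second reference outside the collagen cells, with 801, 1495, 343 and 1149 cells (E15.5 maxillary, E15.5 mandibular, P1 maxillary, P1 mandibular). Ebf2 is a transcription factor of connective tissue and fat precursors. At least 2-fold differences were found for 718 genes in the E15.5 maxillary library (9.38%, with 5.36% higher and 4.02% lower), 1430 in the E15.5 mandibular (18.2%, 10.6% and 7.65%), 978 in the P1 maxillary (12.3%, 5.58% and 6.76%) and 1943 in the P1 mandibular (24.3%, 13.6% and 10.7%). Hpse2 was higher in the Alx1 cells by 4.82, 4.67, 6.13 and 5.99 on the log2 scale. Gpc5, a heparan sulfate proteoglycan of the cell surface, stood at 183.1, 27.0, 147.2 and 406.3 CPM and was higher than in Ebf2 cells by 4.04, 2.74, 3.54 and 5.67. Rgs5, a pericyte gene, and Clec3b, a connective tissue fibroblast gene, were lower in each library, with log2 ratios of -4.86 or below. Rgs5 stood at 4.66, 0.963, 20.9 and 2.89 CPM and Clec3b at 0.717, 0, 1.71 and 3.61 CPM in the Alx1 cells. The whole list of 14 dermal and connective tissue fibroblast markers had 0, 0, 0 and 1 genes higher and 2, 8, 6 and 10 lower of the 11, 12, 12 and 14 compared, the latter with a median of -5.93 in the P1 mandibular cells beside 0.17 over all genes.

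The maxillary and mandibular Alx1 cells differed from each other in more genes than the other collagen cells of the same libraries did. At E15.5, 1078 of 7909 genes differed at least 2-fold between the jaws in the Alx1 cells (13.6%, with 7.36% higher and 6.27% lower in the maxilla), and 225 of 7490 in the other collagen cells (3.0%). At P1 the numbers were 1143 of 8018 (14.3%, with 7.79% and 6.46%) and 138 of 7425 (1.86%). Of the P1 maxillary comparison cells, 60.9% were barcodes that also occur in the P1 mandibular library. The comparison of the jaws without them was not made, and their part in the P1 share of 1.86% was not tested. A population of fewer cells has wider counting error, and the Alx1 populations were of 73 to 702 cells against 1306 to 6753. At both stages 310 genes of 7433 were at least 2-fold higher in the maxillary Alx1 cells (4.17%) and 211 at least 2-fold lower (2.84%).

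Transcription factors of the upper jaw and palate stood on the maxillary side. Meis2 was at 539.8 and 366.8 CPM in the maxillary cells of E15.5 and P1 and at 23.1 and 2.17 CPM in the mandibular ones, with log2 ratios of 4.55 [3.97 to 5.19] and 7.4 [5.85 to 9.68]. Osr1, a zinc finger factor of the palate and of connective tissue, was at 120.4 and 86.6 CPM against 3.85 and 0.723 CPM, with ratios of 4.97 and 6.90. Shox2, a homeodomain factor of the anterior palate, was at 395.0 and 247.4 CPM against 52.9 and 9.40 CPM, with ratios of 2.90 and 4.72. The ratios of these genes in the other collagen cells were 0.77 and 1.92 for Meis2, 0.73 and 0.72 for Osr1, and 0.87 and 0.78 for Shox2. The P1 ratios of these cells include the shared barcodes, and ratios without them were not computed. Without shared barcodes the P1 maxillary other collagen cells held more Meis2, as given above, so its P1 ratio of 1.92 depends on them. Among the Alx1 cells, Six2 was at 49.5 and 28.6 CPM against 7.70 and 0.723 CPM, and the nuclear receptor Nr2f1 at 53.4 and 42.2 CPM against 0.963 and 2.89 CPM. Other named genes of the maxillary side were Nxph1, Lrrtm4, Rgs17 and Egfl6. Nxph1, which encodes a secreted neurexin ligand, was at 201.4 and 278.1 CPM in the maxillary cells and at 0.963 CPM and 0 in the mandibular ones, so that the P1 ratio of 7.0 is a lower bound set by a floor of 3 UMIs.

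Factors of mandibular identity stood on the other side. Hand2 had 1 UMI in the 217 E15.5 maxillary cells and 0 in the 702 P1 maxillary cells, against 177.1 CPM (184 UMIs) and 167.0 CPM (231 UMIs) in the mandibular cells. It was found in 84.9% and 82.3% of the mandibular Alx1 cells, and in 7.96% and 2.47% of the other collagen cells of the same libraries. Dlx5 was at 7.53 and 10.7 CPM in the maxillary and at 110.7 and 125.8 CPM in the mandibular cells, with log2 ratios of -3.88 [-4.62 to -3.20] and -3.56 [-4.23 to -2.95]. Dlx3, Dlx4, Dlx6 and Msx2 were lower in the maxillary cells too, with ratios between -5.25 and -3.99, and Dlx1 and Dlx2 had ratios between -3.11 and -2.39. Between the other collagen cells of the jaws, Dlx5 differed by 0.01 and 0.15, where the P1 value includes the shared barcodes. Of the 33 jaw and palate transcription factors, 10 were higher and 9 lower in the maxillary cells of the 25 compared at E15.5 (median -0.06), and 7 higher and 10 lower of the 25 compared at P1 (median -0.80). The medians over all genes were -0.03 and -0.01. Over all genes, 7.36% were higher and 6.27% lower in the maxillary cells at E15.5, and 7.79% and 6.46% at P1.

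**Figure D3:**
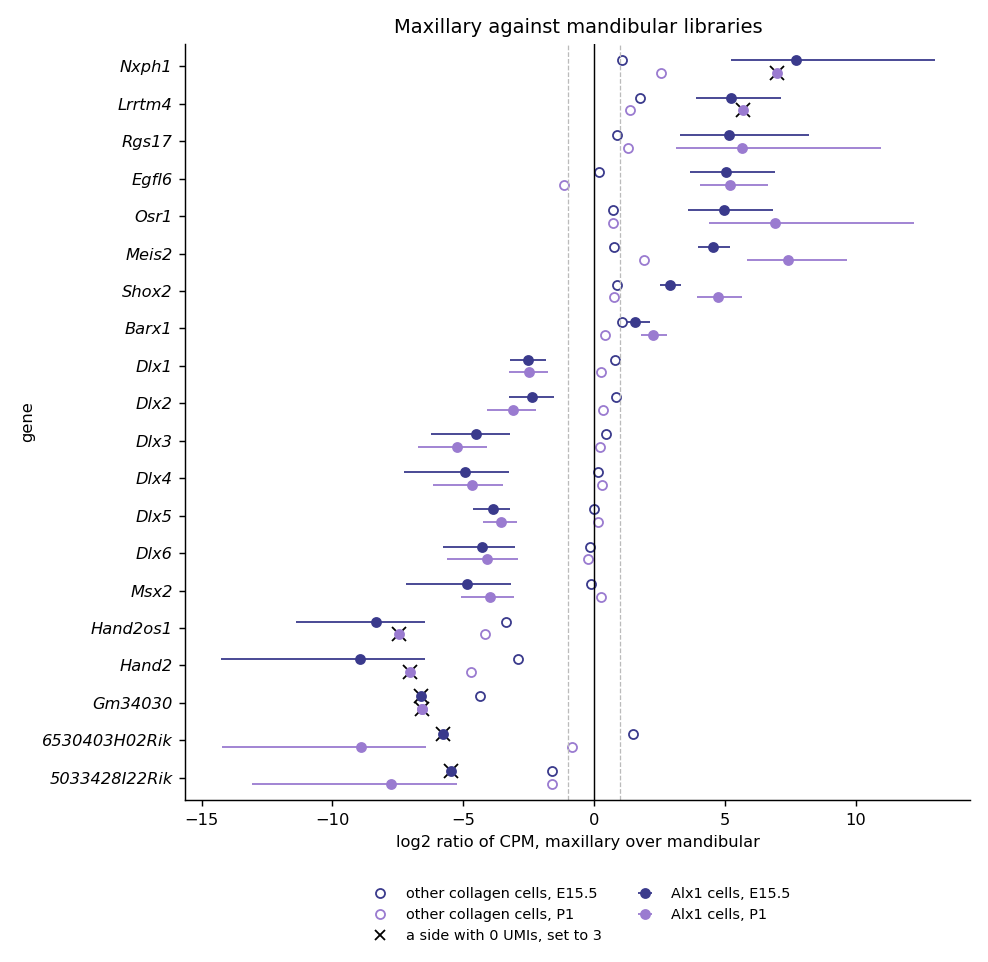
Log2 ratio of CPM, maxillary over mandibular (horizontal axis), for 20 genes (rows), with filled dots for the Alx1 cells and hollow dots for the other collagen cells at E15.5 (dark) and P1 (light). Bars are exact 95% intervals, crosses mark ratios in which a side had 0 UMIs and was set to 3, and dashed lines mark 2-fold. The filled dots of Dlx5 lie at -3.88 and -3.56 and its hollow dots near 0. The hollow P1 dots include the shared barcodes.

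The lowest maxillary to mandibular ratios of the whole table came largely from 1 locus. Hand2, Hand2os1, Gm34030 and 5033428I22Rik, 4 of the 5 genes named by the rule, lie within 73464 bases of chromosome 8 (mm10, chr8:57281117-57354580). Hand2os1, the antisense transcript of Hand2, overlaps it by 3251 bases. The 3′ kit keeps the strand of a transcript, but how the overlap was counted is not given in the sources used here, so values of the pair are uncertain. Hand2os1 was at 231.0 and 224.1 CPM in the mandibular Alx1 cells and at 0.717 CPM and 0 in the maxillary ones. Gm34030 was at 104.9 and 122.9 CPM against 0 in both maxillary libraries, and 5033428I22Rik at 48.1 and 91.8 CPM against 0 and 0.427 CPM. The fifth, 6530403H02Rik, a long noncoding RNA of chromosome 3 (chr3:120604109-120886733), was at 58.7 and 203.9 CPM against 0 and 0.427 CPM. The other collagen cells of the mandibular libraries held at most 9.44 CPM of any of the 5. The 250 bases before the start of Hand2 (RefSeq, GRCm38.p6, chr8:57320733-57320982, plus strand, 5′ to 3′) are shown because Hand2 and its neighbours were among the genes that differed most between the jaws, and these bases lie within Hand2os1. Cores TAAT or ATTA are in capitals.
Hand2: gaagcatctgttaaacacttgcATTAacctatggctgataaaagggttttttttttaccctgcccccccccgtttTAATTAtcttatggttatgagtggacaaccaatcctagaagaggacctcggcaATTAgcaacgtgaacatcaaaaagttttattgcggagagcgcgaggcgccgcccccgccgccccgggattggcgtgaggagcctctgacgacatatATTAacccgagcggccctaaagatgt
There were 5 cores, of which those starting 175 and 173 bases before the start overlap, and no palindromic pair. No measurement here bears on whether any factor binds them.

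The related gene Alx4 was present in all 4 libraries at a low level, 19.7, 33.7, 42.2 and 37.6 CPM (E15.5 maxillary, E15.5 mandibular, P1 maxillary, P1 mandibular), in 20.3%, 34.2%, 12.3% and 39.6% of the Alx1 cells. Its intervals between the jaws overlapped 0 at P1, where the log2 ratio was 0.17 [-0.33 to 0.68]. Of the 25 Alx and upper face factors, 0 were higher and 2 lower than in other collagen cells of the 10 compared in the E15.5 maxillary library (median -0.46), and 5 higher and 6 lower of 14 in the E15.5 mandibular (median -0.52). At P1 the list had 9 higher and 1 lower of 14 in the maxillary library (median 2.01), 3 higher and 3 lower of 16 without shared barcodes (median 0.23), and 5 higher and 2 lower of 9 in the mandibular one (median 2.08). The shares of all genes past 2-fold were 4.37%, 13.6%, 12.4%, 2.5% and 10.1%, and the medians over all genes 0.00 to 0.05. Zic2, Zic4 and Lmx1b, factors of the forehead, meninges and eye region, had 0 UMIs in the E15.5 Alx1 cells of either jaw.

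Genes of bone formation and of growth signals set the mandibular Alx1 cells apart from the maxillary ones. Runx2, the master factor of osteoblasts, was found in 95.9% of E15.5 and 96.9% of P1 mandibular Alx1 cells and in 35.9% and 34.0% of the maxillary ones. Its levels were 250.5, 1610.4, 370.2 and 1146.6 CPM (E15.5 maxillary, E15.5 mandibular, P1 maxillary, P1 mandibular), with log2 ratios to the other collagen cells of -1.40, 1.80, 0.07 and 1.89, and of -0.61 in the P1 maxillary library without shared barcodes. The mandibular cells thus stood above their reference at both stages, and the E15.5 maxillary cells below it. Sp7, which acts after Runx2, was in 35.6% and 55.2% of mandibular and in 5.53% and 1.85% of maxillary cells. Late bone genes did not follow in the P1 mandibular cells: of 11 osteoblast markers, Runx2 and Mmp13 were higher and 8 were lower than in other collagen cells, among them Bglap, Dmp1, Phex, Ibsp and Alpl. At E15.5, 4 of 7 compared were higher in the mandibular cells, including Spp1, whose UMIs came from 5 cells. Over all genes, 4.24% were higher and 5.81% lower in the P1 mandibular cells, and 7.13% and 6.42% in the E15.5 mandibular ones. Ptch1, a receptor and target of hedgehog signaling, was at 123.7, 656.5, 122.0 and 792.4 CPM, and Lef1, a transcription factor of the Wnt pathway, at 15.4, 129.0, 28.6 and 185.1 CPM. The other collagen cells held Ptch1 at 737.5 CPM (168.7 CPM without shared barcodes) in the P1 maxillary and 697.9 CPM in the P1 mandibular library, so the P1 mandibular Alx1 cells were within 2-fold of their reference for Ptch1, at 0.18 [0.09 to 0.27].

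Genes of the Wnt pathway, the subject of the study, were divided between the jaws. Of the 50 listed, 10 were higher and 7 lower in the maxillary than the mandibular Alx1 cells at E15.5 (32 compared, median 0.03), and 9 higher and 14 lower at P1 (40 compared, median 0.16). Over all genes the shares higher and lower were 7.36% and 6.27% at E15.5 and 7.79% and 6.46% at P1. The secreted antagonist Dkk2 was at 647.3, 83.7, 509.3 and 96.9 CPM, higher in both maxillary libraries. The secreted Wnt binder Sfrp4 was at 12.5, 368.7, 25.6 and 54.9 CPM, highest in the E15.5 mandibular cells, where it exceeded the other collagen cells by 4.83 [4.59 to 5.07]. Its relative Sfrp2 was abundant in all 4, at 1484.2, 1025.2, 1450.6 and 1354.8 CPM, and its ratio to the other collagen cells was 0.99, 1.48, 2.69 and 4.01, with 0.17 in the P1 maxillary library without shared barcodes. Against the other collagen cells, the list had 2 higher and 3 lower of 29 (E15.5 maxillary), 11 and 4 of 32 (E15.5 mandibular), 12 and 12 of 41 (P1 maxillary), 3 and 0 of 31 (the same without shared barcodes) and 8 and 4 of 36 (P1 mandibular). The shares of all genes past 2-fold in either direction were 4.37%, 13.6%, 12.4%, 2.5% and 10.1% in the same order. The BMP, FGF and hedgehog list had 16 higher and 6 lower of 31 in the E15.5 mandibular cells (median 1.10), against 2 and 2 of 27 in the E15.5 maxillary ones (median 0.02). At P1 it had 7 higher and 12 lower of 30 in the maxillary cells (median -0.46), 0 and 0 of 27 there without shared barcodes (median 0.13), and 3 and 3 of 29 in the mandibular cells (median 0.00). Of 27 genes for heparan sulfate and its enzymes, 1 was higher and 0 lower of 18 compared in the E15.5 maxillary cells, 4 and 3 of 19 in the E15.5 mandibular, 2 and 2 of 19 in the P1 maxillary (1 and 0 of 18 without shared barcodes) and 1 and 3 of 19 in the P1 mandibular ones. The gene higher in the E15.5 maxillary cells was the sulfotransferase gene Hs6st3, which was at 214.7, 140.5, 326.3 and 93.3 CPM with ratios of 2.14, 2.02, 1.85 and 0.07, and 1.85 without shared barcodes.

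Of 22 collagen genes compared between the jaws, 7 were higher and 3 lower in the maxillary cells at E15.5 and 6 higher and 1 lower at P1. Of the axon guidance and adhesion genes, 10 were higher and 9 lower of 32 at E15.5, and 12 higher and 3 lower of 33 at P1, beside 13.6% and 14.3% of all genes past 2-fold. Col8a1, a short-chain collagen, was at 116.8, 1463.2, 324.2 and 771.4 CPM, and the ratio of maxillary to mandibular cells was -3.65 at E15.5 and -1.25 at P1. Col14a1, a fibril-associated collagen, ran the other way, at 272.0, 27.9, 338.7 and 2.89 CPM. Slit2, a secreted guidance cue, was at 1122.2, 143.4, 1196.4 and 96.2 CPM, and in the maxillary cells it was higher than in other collagen cells by 1.64 at both stages and by 1.55 without shared barcodes. The mandibular cells were below their reference for Slit2, at -0.58 and -1.64.

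Within the maxillary library of E15.5, Alx1 cells with Pax3 (145) and without it (72) differed in their other genes. Those without Pax3 had more Runx2, 443.9 against 153.1 CPM, and less Pax9, a factor of palate and tooth mesenchyme, 83.4 against 160.1 CPM. Meis2 was at 426.8 CPM without and 596.7 CPM with Pax3, and Hpse2 at 169.0 and 147.7 CPM. At P1 the cells without Pax3 (290) had 487.6 CPM of Hpse2 and those with it (412) 205.7 CPM. Meis2 was at 208.8 and 465.3 CPM, and Pax9 at 249.9 and 256.9 CPM, with overlapping intervals. As the rule asks for 2 UMIs of both genes together, a cell without Pax3 had to hold at least 2 of Alx1, so these groups also differ in Alx1 by construction.

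Neurotensin (Nts) and its neighbourhood were named after their values were seen. Nts, which encodes a secreted neuropeptide, was at 0.358, 258.0, 65.3 and 595.7 CPM (E15.5 maxillary, E15.5 mandibular, P1 maxillary, P1 mandibular) and was held by 0.461%, 42.5%, 8.26% and 75.0% of the Alx1 cells. Its level in the other collagen cells was 3.23 to 12.3 CPM, and 14.0 CPM in the P1 maxillary ones without shared barcodes. Both mandibular libraries were above both maxillary ones, and in the P1 maxillary library 5 of the 58 cells with Nts held Pax3, against 412 of all 702. By the rule, cells without Pax3 held at least 2 UMIs of Alx1, so Pax3 and Alx1 were not independent here. Sst, the somatostatin gene, was at 69.3 and 177.8 CPM in the mandibular cells, held by 6 of 73 and 16 of 96, each of which also held Nts. Nts lies 508220 bases from Alx1 on chromosome 10 (chr10:102481756-102490486, Alx1 at chr10:102998707-103030215). On the other side of Alx1, at 15815 bases, lies Lrriq1 (chr10:103046031-103236322, same strand), which was at 0.358, 8.66, 244.4 and 23.1 CPM, and in the P1 maxillary Alx1 cells was found in 27.1% of cells against 1.50% of the other collagen cells and 9.28% of cells with Epcam. Its level in the other collagen cells there was 2.84 CPM, and 17.9 CPM without shared barcodes.

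Between E15.5 and P1, at least 2-fold differences were found for 244 of 7642 genes in the maxilla (3.19%, with 1.92% higher and 1.27% lower at P1) and 791 of 7881 in the mandible (10.0%, with 5.44% and 4.59%). With cells thinned to 2000 UMIs the numbers were 464 of 7482 (6.2%) and 202 of 2125 (9.51%), so the count was then higher in the maxilla and the share in the mandible. The share among the other collagen cells was 10.3% in the maxilla, 1.52% there without shared barcodes, and 12.7% in the mandible. In both jaws, 21 of 7035 genes were higher at P1 (0.299%) and 21 lower (0.299%). Rgs6, a regulator of G-protein signaling, was higher at P1 by 3.70 and 2.51 (maxilla, mandible), with 97.7 and 38.3 CPM at P1 against 7.53 and 6.74 CPM at E15.5. The cartilage collagen gene Col9a3 was higher by 3.40 and 3.0, at 49.1 and 23.1 CPM against 4.66 and 2.89 CPM. Of its 115 UMIs in the P1 maxillary cells 60 came from 1 cell, and with the cell of most UMIs left out of each population the levels in the maxilla were 23.6 and 2.18 CPM and the ratios 3.43 and 3.18. In the other collagen cells of the mandible both genes had ratios below 0, at -0.85 and -1.90. Other named genes of P1, such as Galnt13, Car2, Pappa, Sorbs2, Brinp1 and Sorcs3, had ratios of 1.76 to 2.49 in the maxilla and 1.87 to 3.29 in the mandible, and in the other collagen cells of the mandible ratios of 2.38 to 3.77.

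The 8 genes named as lower at P1 included Junb, Btg2, Socs3, Nr4a3 and Zfp36, genes that dissociation and growth factors also induce. Junb was at 322.2 and 438.9 CPM at E15.5 (maxilla, mandible) and at 125.4 and 144.6 CPM at P1, a log2 ratio of -1.36 and -1.60. The other four had ratios between -1.68 and -1.35, while Egr1, another gene of this kind, was within 2-fold, at -0.58 and -0.88. Junb in the other collagen cells differed by -0.28 in the maxilla without shared barcodes and by 0.40 in the mandible. Ibsp, the bone sialoprotein gene, had log2 ratios of -1.59 and -3.74, but at E15.5 its UMIs came from 9 of 217 and 14 of 73 cells, and 441 of the 561 in the mandible from 1 cell. With the cell of most UMIs left out of each population the ratios were -2.28 and -2.57. Kcnd2, a potassium channel gene, had log2 ratios of -4.43 and -2.28, but its E15.5 UMIs came from 17 of 217 and 3 of 73 cells, with 36 of the 40 in the mandible from 1 cell. The mandibular ratio turned to 0.37 with the cell of most UMIs left out of each population and to 0.62 when cells scored as doublets were left out. Cell division differed in the mandible: of 29 cell cycle genes compared, 14 were higher at P1 and 0 lower (median 0.86 beside -0.01 over all genes), and in the maxilla 0 of 29 were past 2-fold (median -0.14). Mki67 was held by 9 of 73 mandibular cells at E15.5 (12.3% [5.8 to 22.1]) and by 23 of 96 at P1.

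**Figure D4:**
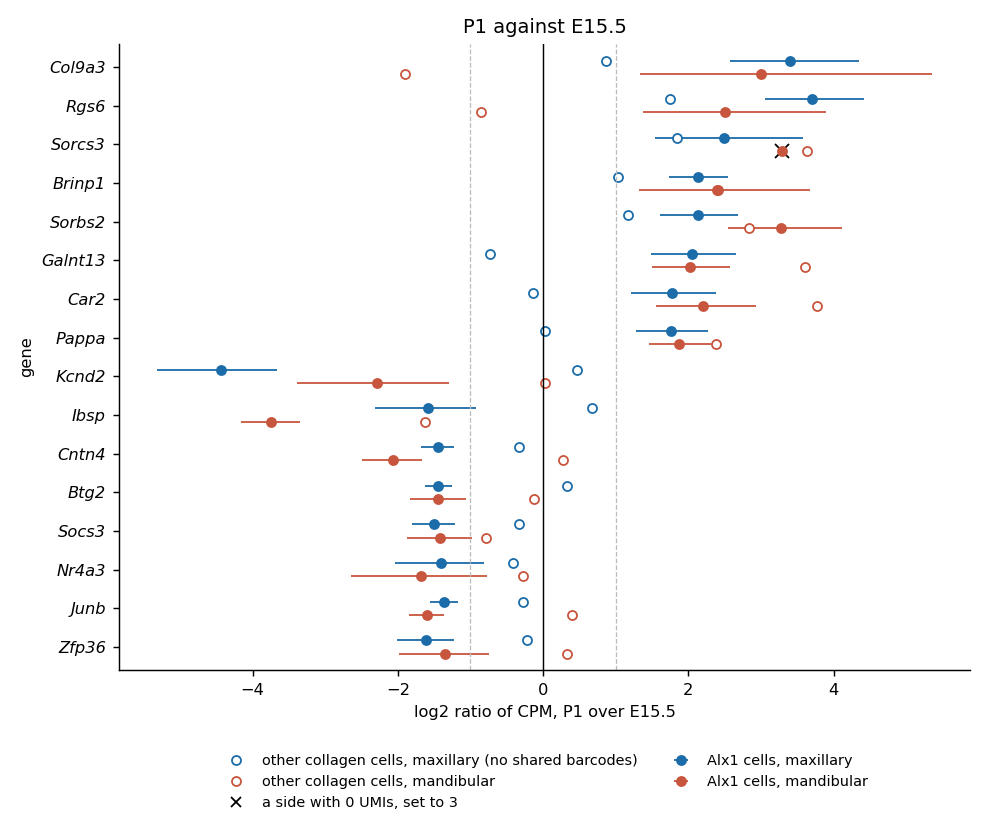
Log2 ratio of CPM, P1 over E15.5 (horizontal axis), for the 16 named genes (rows), with filled dots for the Alx1 cells and hollow dots for the other collagen cells of the maxilla (blue, without shared barcodes) and mandible (red). Bars are exact 95% intervals, the cross marks a side with 0 UMIs set to 3, and dashed lines mark 2-fold. Junb lies at -1.36 and -1.60 in the Alx1 cells and at -0.28 and 0.40 in the other collagen cells.

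As the P1 maxillary cells were shallower, shares of cells with a UMI were repeated after each cell was thinned to 2000 UMIs, which left out the 94 of 702 P1 maxillary cells with fewer and no cell of the other libraries. Hpse2 was then in 23.5%, 47.9%, 30.4% and 25.0% of the Alx1 cells (E15.5 maxillary, E15.5 mandibular, P1 maxillary, P1 mandibular). Meis2 was in 55.8% and 40.0% of the maxillary cells and in 0 and 1.04% of the mandibular ones. Runx2 was in 16.1% and 29.8% of the maxillary and 86.3% and 78.1% of the mandibular cells, and Hand2 in 0.461% and 0 against 32.9% and 39.6%. Dlx5 was in 1.84% and 1.97% of the maxillary and 20.5% and 21.9% of the mandibular cells. For Meis2, Runx2, Hand2 and Dlx5 the maxillary and mandibular shares thus stayed apart among these cells, each with 2000 UMIs.

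**Figure D5:**
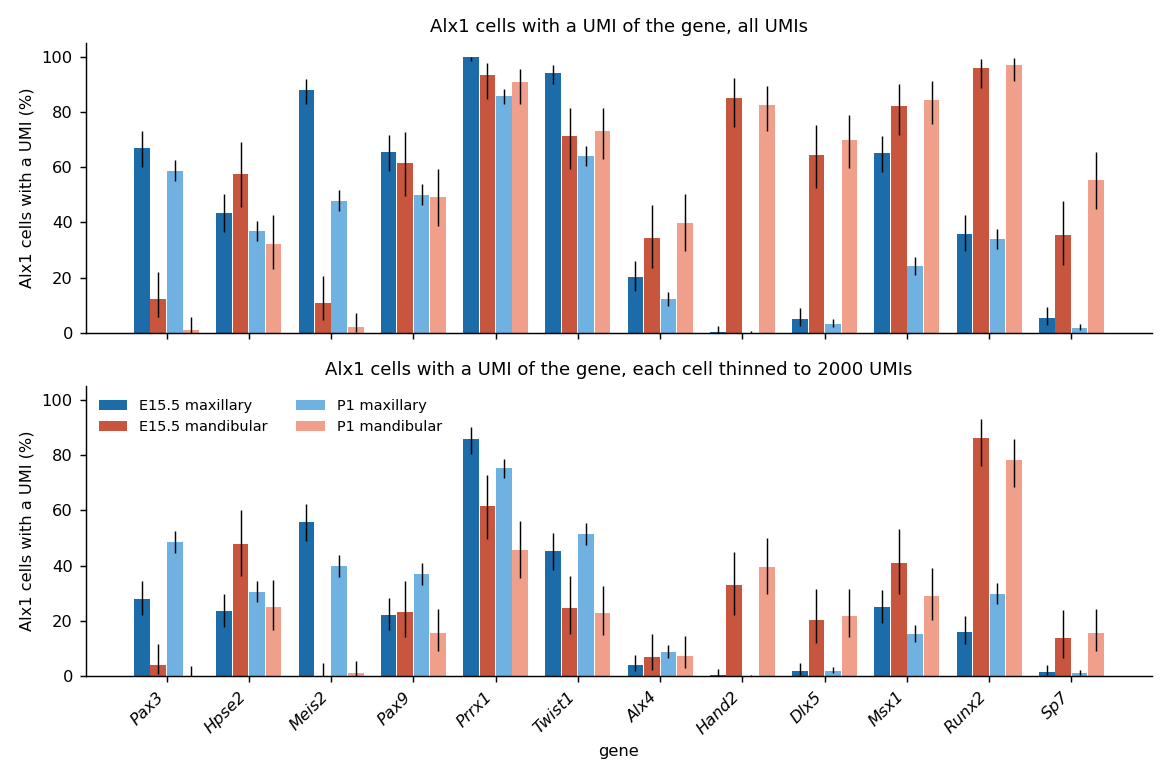
Percentage of Alx1 cells with at least 1 UMI of each of 12 genes (vertical axis, from 0) in the 4 libraries, with all UMIs (top) and with each cell thinned to 2000 UMIs (bottom). Bars carry exact 95% Clopper-Pearson intervals, and the red mandibular bars of Runx2 stand at 86.3% and 78.1% after thinning against 16.1% and 29.8% for the blue maxillary ones.

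Markers of other cell types varied by library. Of the 7 immune markers 0 were compared in any library, and their summed level was 47.7, 11.6, 18.8 and 10.1 CPM in the Alx1 cells (E15.5 maxillary, E15.5 mandibular, P1 maxillary, P1 mandibular), against 24.4, 18.2, 13.9 and 25.9 CPM in the other collagen cells and 45.3 CPM in the P1 maxillary ones without shared barcodes. The 6 endothelial markers summed to 14.4 to 19.2 CPM against 23.1 to 36.1 CPM. The 8 epithelial markers summed to 29.7, 89.5, 83.2 and 93.3 CPM against 80.5, 10.1, 52.8 and 102.4 CPM, and 70.2 CPM without shared barcodes. The 10 chondrocyte markers summed to 263.1, 770.1, 752.4 and 1122.7 CPM against 538.8, 963.2, 1034.0 and 916.2 CPM, and 695.8 CPM without shared barcodes. The 11 osteoblast markers summed to 3857.2 CPM in the E15.5 mandibular cells, where Spp1 rests on few cells, against 1580.9 CPM, and to less than in the other collagen cells in the other libraries. Muscle markers summed to 258.4 CPM against 116.5 CPM in the E15.5 maxillary cells, where 261 of the 274 UMIs of the cardiac actin gene Actc1 came from 1 cell, and to 14.5 to 84.7 CPM in the other libraries. Globin made up 0.940%, 0.0566%, 0.642% and 0.573% of UMIs in the Alx1 cells (E15.5 maxillary, E15.5 mandibular, P1 maxillary, P1 mandibular), against 1.40%, 2.12%, 0.219% and 0.596% in the other collagen cells. Without shared barcodes the P1 maxillary value of the latter was 1.0%, so globin was then lower in the Alx1 cells. Among 8 Schwann cell and neural crest markers, Sox10, Foxd3, Erbb3 and Cdh19 had 0 UMIs in the P1 mandibular Alx1 cells. In the P1 maxillary cells the 8 summed to 170.6 CPM against 75.4 CPM in the other collagen cells and 285.9 CPM in those without shared barcodes. The part of this RNA in the results was not tested.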

How the data were processed

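Droplet single-cell libraries (10x Genomics 3′ kit) of 4 pools of molar tooth organs were aligned and counted by the authors with Cell Ranger 7.0.1 on mm10, per the labels, and the deposited values are raw UMI counts per gene and barcode for 32285 genes. Here barcodes were filtered, the Alx1 cells, other collagen cells and Ebf2 cells were taken by the UMI thresholds given above, and counts were summed per population and divided by their total. The members, markers and 24 gene lists were chosen with earlier results of these data known. With a single library per stage and jaw no test was made. Log2 ratios have exact conditional binomial intervals, levels exact Poisson and shares Clopper-Pearson intervals, which cover counting error only. A gene counted as higher or lower from 2-fold on, and 0 UMIs were set to 3 for a ratio, which is then a bound. The 11 genes of the rule stayed out of all counts. Named genes were the 15 highest and 8 lowest against other collagen cells, by the weaker ratio of the maxillary libraries, the 5 highest and 5 lowest against Ebf2 cells and between jaws, and the 8 highest and 8 lowest between stages, each by the weaker ratio; genes outside this rule and the lists, such as those shared by all 4 libraries, Nts, Sst and Lrriq1, were named after their values were seen. Some genes that the rule or the lists would name are not reported here, and counts over lists include them. The rule removed no doublets. Leaving out barcodes scored highest by Scrublet (0.8% per 1000 barcodes) was an alternative, as were other thresholds and thinning to 2000 UMIs. Marked in this way were 20 of 217, 7 of 73, 88 of 702 and 31 of 96 Alx1 cells (E15.5 maxillary, E15.5 mandibular, P1 maxillary, P1 mandibular). Over all barcodes the numbers were 948 of 10885, 505 of 7947, 2800 of 18707 and 3011 of 19401. Coordinates are of mm10 (GENCODE). Python 3.11.15, numpy 2.4.6, scipy 1.17.1, pandas 2.3.3, scanpy 1.11.5 and matplotlib 3.10.9 were used, and the code was tested on simulated data. Of 7 promoters looked for in the RefSeq table, 3 were matched.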

Additional observations from a re-analysis of the deposited data

Results flagged for a closer look

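The level of Hpse2 differed between stages in opposite directions in the jaws. In the maxillary Alx1 cells it was higher at P1 than at E15.5, with a log2 ratio of 1.02, and in the mandibular Alx1 cells it was lower, with a log2 ratio of -1.15. The P1 maxillary cells were the shallowest, at a median of 2820 UMIs. Rorb, a nuclear receptor gene, moved the other way, with -1.64 in the maxilla (165.2 CPM at E15.5, 52.9 CPM at P1) and 1.70 in the mandible (15.4 and 49.9 CPM). It was found in 53.0%, 12.3%, 9.69% and 29.2% of the Alx1 cells (E15.5 maxillary, E15.5 mandibular, P1 maxillary, P1 mandibular). With 1 library for each stage and jaw, the difference between the jaws was not tested for either gene.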

How the results depend on the processing

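No paired analysis was possible because each stage and jaw was a single library without replicate numbers. All values are in the order E15.5 maxillary, E15.5 mandibular, P1 maxillary, P1 mandibular where 4 are given. The share of Alx1 cells was 3.47%, 3.58%, 5.09% and 1.66% from 3 UMIs of Alx1 and Pax3 on, 16% in the P1 maxillary library without shared barcodes, 2.13% in the P1 mandibular library without Scrublet doublets, and 0.797%, 0.463%, 5.73% and 0.277% with cells thinned to 2000 UMIs before the rule. The number of genes past 2-fold against other collagen cells was 188 in the P1 maxillary library without shared barcodes, 618 with each cell weighing the same and 428 with comparison cells weighted by depth. Thinned, it was 659 (E15.5 maxillary), 1650 (E15.5 mandibular) and 1597 (P1 mandibular). It was 176, 522, 608 and 414 at a minimum of 50 CPM, and 1860, 2523, 3204 and 3106 with none. Between stages it was 464 of 7482 (6.2%) and 202 of 2125 (9.51%) thinned (maxilla, mandible), 114 and 326 at 50 CPM and 498 in the maxilla with no minimum, and between jaws 586 of 3674 (15.9%) thinned at E15.5, where fewer genes reached the minimum, and 558 and 620 at 50 CPM. Without shared barcodes the ratios of Meis2 (-0.07) and Galnt13 (0.81) to other collagen cells, as the weaker maxillary value, changed sign, and that of Kcnd2 between stages did so without doublets (0.62), thinned (1.6), and, as alternatives chosen after seeing the data, without cells with globin or muscle RNA (1.01) and without the cell of most UMIs (0.37). The cause was not tested. The higher share of the genes past 2-fold moved by over 10 percentage points for the maxillary stage comparison thinned (60.2% to 74.4%), the P1 jaw comparison thinned (54.7% to 68.0%), the P1 maxillary comparison with equal weights (49.6% to 38.3%) or depth weights (36.4%), and the E15.5 maxillary comparison with no minimum (52.1% to 36.8%). Of 59 named ratios, 46 stayed past 2-fold without shared barcodes and 58 without doublets, and 52 of 56 thinned. The mandibular populations of 73 and 96 cells limit what low genes can show.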

Other observations

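Keratins 8 and 18, the filament proteins of simple epithelia, were found in the mandibular Alx1 cells, which hold no UMI of Epcam by rule. Krt8 was at 2.87, 45.2, 11.9 and 18.1 CPM and Krt18 at 8.24, 42.4, 9.38 and 27.5 CPM (E15.5 maxillary, E15.5 mandibular, P1 maxillary, P1 mandibular). Each was in 24.7% of the 73 E15.5 mandibular Alx1 cells, and against the other collagen cells they were higher there by 5.21 and 3.72 on the log2 scale. Of the 8 epithelial markers, Krt14, Krt15, Cdh1 and Perp had 0 UMIs in the E15.5 mandibular Alx1 cells. The part of epithelial RNA in the Krt8 and Krt18 levels was not tested.

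Retinoic acid genes were compared with the other collagen cells of each jaw at E15.5. Of 12 compared in the E15.5 mandibular Alx1 cells, 7 were higher than in other collagen cells and Rbp4 was lower (median 1.28 beside 0.04 over all genes). Over all genes 7.13% were higher and 6.42% lower there. In the E15.5 maxillary cells 0 were higher and 1 lower of 11, beside 2.28% and 2.09% of all genes. The 18 listed genes summed to 719.7 CPM in the E15.5 maxillary and 1138.8 CPM in the E15.5 mandibular Alx1 cells. The other collagen cells held 718.6 and 602.2 CPM. Aldh1a2, which makes retinoic acid, was at 31.2, 84.7, 40.1 and 47.0 CPM, and in the P1 maxillary library its ratio was 2.02 with and -0.06 without shared barcodes.

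Cartilage genes were compared between stages in the maxillary Alx1 cells, where 7 of 9 were higher at P1 and 0 lower (median 1.41), beside 1.92% higher, 1.27% lower and a median of 0.01 over all genes. In the mandibular cells 3 of 6 were higher and 0 lower (median 1.14), beside 5.44% and 4.59%. Col2a1 was higher by 4.40 in the maxillary cells and had 0 UMIs in the P1 mandibular ones. Of the P1 maxillary Alx1 cells, 47.6% held no UMI of the 10 chondrocyte markers of this list, against 22.6% of the deeper E15.5 ones. The summed share of these markers in the median cell was higher at P1 too, but the highest P1 cell lay far above that median. The part of few cells in the stage difference of the list was not tested. Against other collagen cells without shared barcodes, 0 of 9 cartilage genes were past 2-fold in either direction at P1.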
